A study of Homo sapiens with 11 samples.

Results

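The intervals described here are the stretches of chromatin called as enriched for H4K20me3, histone H4 trimethylated at lysine 20, in MDA-MB-231 cells with the mdig protein (WT) and without it (KO). They were taken from the deposited interval file as the blocks under the H4K20me3 WT and H4K20me3 KO track lines, on chromosomes 1 to 22 and X. The WT list held 8539 intervals and the KO list 25318, together 33857 of the 229591 intervals in the 10 ChIP lists of the series. MDA-MB-231 is a human line of triple-negative breast cancer. WT and KO cells both came out of CRISPR-Cas9 work and were grown in the same medium with blasticidin. Per the labels WT cells made normal amounts of mdig, also named MINA53 or RIOX2, and KO cells made none. Whether the KO cells were 1 clone or a pool is not given in the sources used here. There was 1 library for each genotype and antibody, so every comparison describes 2 libraries, and no test was run.

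H4K20me3 is a mark of silent chromatin. The enzymes KMT5B and KMT5C add it, and they are brought to chromatin by HP1 proteins that bind H3K9me3, the mark of constitutive heterochromatin. It is best known at repeats beside centromeres and at telomeres, and a low level of it has been described in many tumours. Mdig belongs to the JmjC oxygenases, a protein family that includes many histone demethylases. An interval list of a broad mark can differ between cells in separate ways: intervals may become wider, may appear beside earlier ones, or may appear elsewhere.

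The lists held positions only, with no height, score or read depth. A list called from more reads or a cleaner precipitation holds more and wider intervals, and this cannot be told apart from a change in the mark. The label fitted the known company of the mark in one respect. Of the length with H4K20me3 in both genotypes 64.0% lay on WT H3K9me3 intervals, which covered 8.40% of the 3034 Mb spanned by the lists. That length also lay on WT H3K4me3, a mark of active promoters, for 14.1%, where the span had 3.98%. For the mdig antibody (MINA) in WT these shares were 18.9% and 3.94%.

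The width classes were compared first, to see which kinds of interval made up the longer KO list. Every class held more intervals in KO, and the narrow classes differed most. WT held 385 intervals under 2 kb and KO 3932, a ratio of 10.2. From 2 to 5 kb there were 2956 in WT and 11405 in KO, a ratio of 3.86. The ratio was lowest between 10 and 20 kb, where WT had 1682 intervals and KO 2778, or 1.65 times as many. It was higher again for the widest intervals, with 402 and 796 from 20 to 50 kb and 19 and 60 of at least 50 kb. The median width was 6.0 kb in WT and 4.0 kb in KO. The KO median was below the WT median on all 23 chromosomes.

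By length the picture was different, because narrow intervals cover little. Intervals under 2 kb added 4.89 Mb to KO, while those from 2 to 5 kb added 26.5 Mb, those from 5 to 10 kb 21.6 Mb and those from 10 to 20 kb 14.7 Mb. The intervals of at least 20 kb made up 17.7% of the length in WT and 17.7% in KO. These shares depended on how intervals were joined, and with intervals within 5 kb merged they were 41.3% and 46.3%. The widest interval was 78.2 kb in WT and 204.6 kb in KO. With only intervals of at least 10 kb kept in both lists, KO still held 1.73 times as many as WT.

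An interval was counted as shared when at least 1 bp of it lay in the other list. In the KO list 20357 intervals, 80.4%, had no WT overlap and are called KO-only. In the WT list 3812, 44.6%, had no KO overlap and are called WT-only. For H3K9me3 the corresponding shares were 47.2% and 31.4%, for H3K4me3, a mark of active promoters, 5.85% and 14.9%, for H3K36me3, found over transcribed genes, 14.5% and 14.5%, and for the mdig antibody (MINA) 16.9% and 61.2%.

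The wide intervals showed most clearly how the H4K20me3 lists differed. Of the KO intervals under 2 kb 90.8% were KO-only, and this share fell with width but stayed at 67.5% from 10 to 20 kb and 60.3% from 20 to 50 kb. Of the 60 KO intervals of at least 50 kb 27 were KO-only. For H3K9me3 the share of KO-only intervals went from 65.4% under 2 kb down to 7.68% from 20 to 50 kb and 0.508% above. The WT list it was measured against covered 254.7 Mb, and that of H4K20me3 67.2 Mb. In number, 480 KO intervals of 20 to 50 kb stood where the WT list had no H4K20me3 at any base. In the other direction, most wide WT intervals met some KO interval. Of the 402 WT intervals from 20 to 50 kb 84.1% overlapped a KO interval (95% Wilson interval 80.2% to 87.3%). The share was 45.3% from 2 to 5 kb and 38.7% under 2 kb. With 1 bp enough, a wide interval meets a list more readily than a narrow one, and this was not corrected for. With only intervals of at least 10 kb kept in both lists, 41.2% of the WT intervals had a KO overlap.

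**Figure D1:**
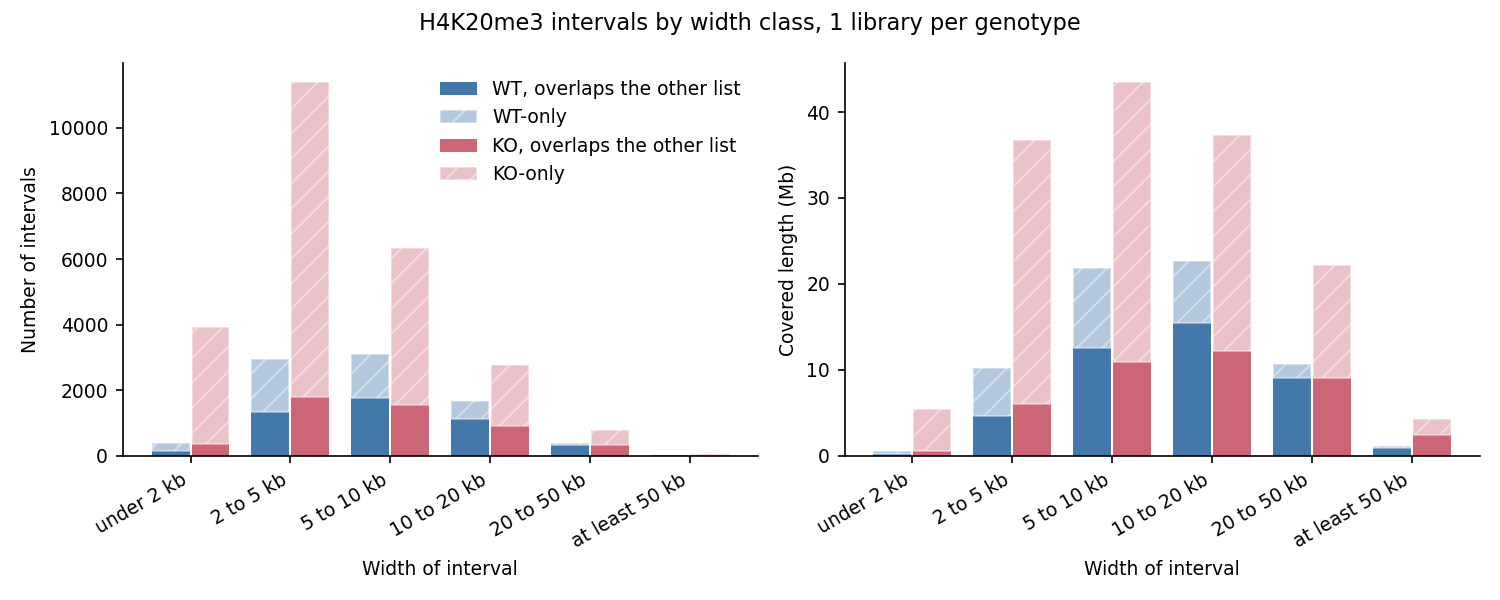
Number of H4K20me3 intervals (left) and their covered length in Mb (right) in 6 width classes, with WT in blue and KO in red. Solid parts overlap the other genotype's list and hatched parts do not: the solid parts of WT and KO are of like height from 5 to 50 kb, and the hatched KO part, 108.4 Mb in all, makes up most of the KO length.

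Next, the KO length outside the WT list was divided between widened intervals and new ones. KO covered 118.9 Mb that WT did not. Of this, 108.4 Mb lay in KO-only intervals and 10.5 Mb in the flanks of shared intervals, so that 91.2% stood apart from any WT interval. For H3K9me3 60.1% of the KO-only length was of this kind, with 59.9 Mb in flanks. WT in turn covered 36.5 Mb of H4K20me3 that KO did not, 24.3 Mb of it in WT-only intervals and 12.2 Mb in flanks. The flanks outside the other list were therefore of like length in both directions, 10.5 Mb for KO and 12.2 Mb for WT.

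Shared intervals were on balance narrower in KO, not extended. The overlaps formed 3582 one-to-one pairs, in which 1 WT interval met 1 KO interval. Their median width was 6.4 kb in WT and 5.2 kb in KO, and the median KO over WT width ratio was 0.884 (quartiles 0.571 and 1.24). In KO 2091 pairs were narrower and 1376 wider. Both KO ends lay outside the WT ends in 564 pairs, and both lay inside in 1025. In 1260 pairs the KO interval reached out at 1 end and fell short at the other. Summed over all pairs, KO covered 0.936 times the WT length, although the whole KO list was 2.23 times as long as the WT list.

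The width ratio varied with the width that a pair had in WT. Pairs under 2 kb in WT had a median ratio of 1.44, those from 2 to 5 kb 1.00, those from 5 to 10 kb 0.839, those from 10 to 20 kb 0.742 and those from 20 to 50 kb 0.588. Sorted by their KO width, the order was turned round, from 0.391 for KO intervals under 2 kb to 1.99 for those from 20 to 50 kb. Sorting by either library alone gives such a slope whenever widths vary between libraries, so these values describe the spread of the pairs. The one-to-one pairs of H3K9me3 had a median ratio of 0.955, those of H3K36me3 1.01 and those of H3K4me3 0.894. Those of MINA had 0.778, lower than the H4K20me3 pairs.

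**Figure D2:**
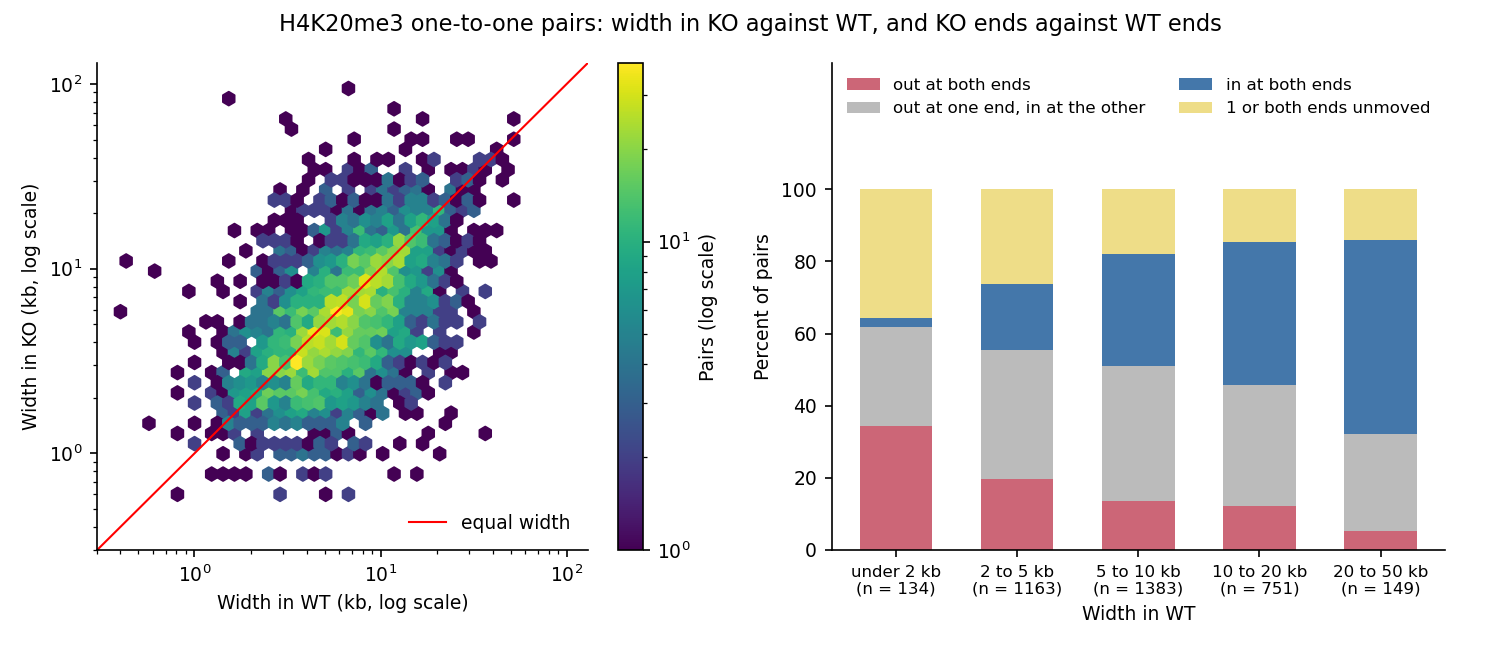
Left, width of the 3582 one-to-one H4K20me3 pairs in KO against WT (kb, log scales, colour for the number of pairs, red line for equal width); right, percent of pairs by how the KO ends lay relative to the WT ends, in classes of WT width. The cloud lies mostly below the line, and pairs with both ends drawn in make up 53.7% of those from 20 to 50 kb in WT but 2.24% of those under 2 kb.

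Joining and splitting were both seen. In 192 cases 1 KO interval covered several WT intervals, 426 of them in all, and there the KO length was 1.20 times the WT length. In 388 cases 1 WT interval met several KO intervals, 829 in all, with a ratio of 0.927. A further 139 groups had several intervals on both sides. The largest join lay on chromosome 1 from 2965201 to 3169800 (hg19, as for all positions). There 10 WT intervals, which covered 165.0 kb, met 1 KO interval of 204.6 kb, the widest of the list. WT H3K9me3 covered 201.8 kb of it. On chromosome 19 from 58509601 to 58657800 8 WT intervals met 1 KO interval of 148.2 kb, all of which lay on H3K9me3 in both genotypes. A pair of joins on chromosome 22, from 48876601 to 48966000 and from 49017001 to 49063600, took in 7 and 6 WT intervals. The fifth lay on chromosome 14 from 50440001 to 50500400, where 5 WT intervals, partly reaching beyond it, met 1 KO interval and H3K9me3 covered only 12.6 kb in WT. The WT interval divided among most KO intervals, 7 of them, lay on chromosome 19 from 52560801 to 52631400. Of its 70.6 kb 56.2 kb had H4K20me3 in KO as well.

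The pairs that differed most in width were unlike in the other marks they carried. The largest widening was on chromosome 10 from 132868201 to 132963600, with 7.2 kb in WT and 94.6 kb in KO. Another on the same chromosome, from 133027401 to 133081800, had 3.2 kb in WT and 54.4 kb in KO. On chromosome 9 from 137991601 to 138075200 an interval of 1.6 kb in WT matched one of 83.6 kb in KO. The others lay on chromosome 5 from 178572201 to 178641200 (3.2 and 69.0 kb) and on chromosome 7 from 154643601 to 154713000 (12.2 and 69.4 kb). In all 5 the WT H3K9me3 list already covered most of the region, at least 54.4 kb each, and none held H3K4me3, H3K36me3 or MINA of WT cells.

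The pairs that narrowed most carried less H3K9me3. On chromosome 11 from 109929201 to 109965800 an interval of 36.6 kb in WT matched one of 1.2 kb in KO. WT H3K9me3 covered 3.4 kb there, H3K4me3 8.4 kb and MINA 6.6 kb. On chromosome 7 from 121133001 to 121170400 the width was 37.4 kb in WT and 7.2 kb in KO, while H3K9me3 covered 26.8 kb in WT and 10.0 kb in KO. On chromosome 10 from 11409001 to 11444400 H4K20me3 was 35.4 kb wide in WT and 7.6 kb in KO, and H3K9me3 covered 28.4 and 6.6 kb. On chromosome 3 from 27635001 to 27669400 the widths were 34.4 and 5.4 kb and H3K9me3 covered 17.0 and 9.2 kb. The last of the 5, on chromosome 8, had 40.8 kb in WT and 10.8 kb in KO and no H3K9me3 in either list.

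Over all pairs the same split was visible but small. Pairs whose WT interval lay for 50% or more on WT H3K9me3 had a median width ratio of 0.946 (2094 pairs). Pairs with no H3K9me3 had 0.847 (1097 pairs), and pairs with some but under 50% had 0.613 (391 pairs, which were also the widest in WT, at a median of 10.4 kb). WT intervals with 50% or more of their length on H3K9me3 had a KO overlap in 61.3% of cases (95% Wilson interval 59.9% to 62.7%) and those with none in 45.1% (43.3% to 46.9%). The split was not particular to H3K9me3. Pairs with 50% or more of the WT interval on WT MINA had a ratio of 0.966 and those with none 0.885, and a KO overlap was seen for 68.4% and 51.2% of the WT intervals. By WT H3K4me3 the ratios were 0.885 and 0.893, with a KO overlap for 70.3% and 50.9%.

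The distance from each KO-only interval to the nearest WT interval was then measured, edge to edge, to see whether new H4K20me3 lay beside the old. For most of it this was not so. The median distance was 338 kb, with quartiles of 76.2 and 975 kb. Only 1415 of the 20357 KO-only intervals lay within 10 kb of a WT interval, while 4962 lay more than 1 Mb away. As a background of position, the same distance was taken for every 200-bp window outside the WT intervals, and its median was 319 kb. Within 10 kb lay 6.95% of the KO-only intervals and 4.33% of the windows, within 100 kb 29.0% and 25.6%, within 500 kb 58.5% and 60.4%, and beyond 1 Mb 24.4% and 24.9%. By these values KO-only intervals lay around the WT ones at distances like those of the windows, with a small surplus below 100 kb. The windows ran from the start of each chromosome, and sequence to which no read can map was not left out. Such windows can lengthen the background distances, so the likeness holds for this background only. Sets of H3K9me3 intervals without WT H4K20me3 were measured in the same way. Those of the WT list had a median of 346 kb, close to that of the KO-only H4K20me3 intervals, and those of the KO list had 744 kb, with 15.4% within 100 kb.

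The surplus within 100 kb of WT was that of the wider intervals. Within this limit lay 24.5% of the KO-only intervals under 2 kb and 25.8% of those from 2 to 5 kb. For the windows it was 25.6%, and for intervals from 5 to 10 kb 33.6%. KO-only intervals under 2 kb lay at a median of 428 kb and those from 2 to 5 kb at 421 kb, both farther than the windows. Those from 5 to 10 kb lay at 255 kb and those from 10 to 20 kb at 172 kb, of which 39.7% were within 100 kb. The 27 of at least 50 kb had a median of 145 kb. The intervals close to WT were also somewhat wider, with a median of 4.4 kb within 10 kb and 3.0 kb beyond 1 Mb. Still, 20.5 Mb of KO-only H4K20me3 lay more than 1 Mb from any WT interval.

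The other antibodies gave other values beside their own windows. KO-only H3K9me3 intervals lay at a median of 14.4 kb from WT H3K9me3, where the windows lay at 48.4 kb, and 42.2% of them were within 10 kb, against 19.8% of the windows. For H3K36me3 the medians were 16.4 kb and 262 kb, for H3K4me3 47.4 and 92.4 kb, and for MINA 60.0 and 213 kb. For these 4 antibodies the KO-only intervals were closer to WT than the windows were, and for H4K20me3 the medians were 338 and 319 kb. The H4K20me3 order turned when the chromosomes were divided by the H3K4me3 stretches described at the end. KO-only intervals were then closer than the windows in both parts, at 667 against 772 kb inside and 221 against 249 kb outside. WT-only H4K20me3 intervals, measured to the denser KO list, had a median of 44.3 kb against 93.6 kb for the windows outside KO intervals, and 22.8% lay within 10 kb, against 11.9%. That median was 376.8 kb with only intervals of at least 10 kb in both lists, and 11.4 kb where sharing needed an overlap of 50% of both intervals.

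**Figure D3:**
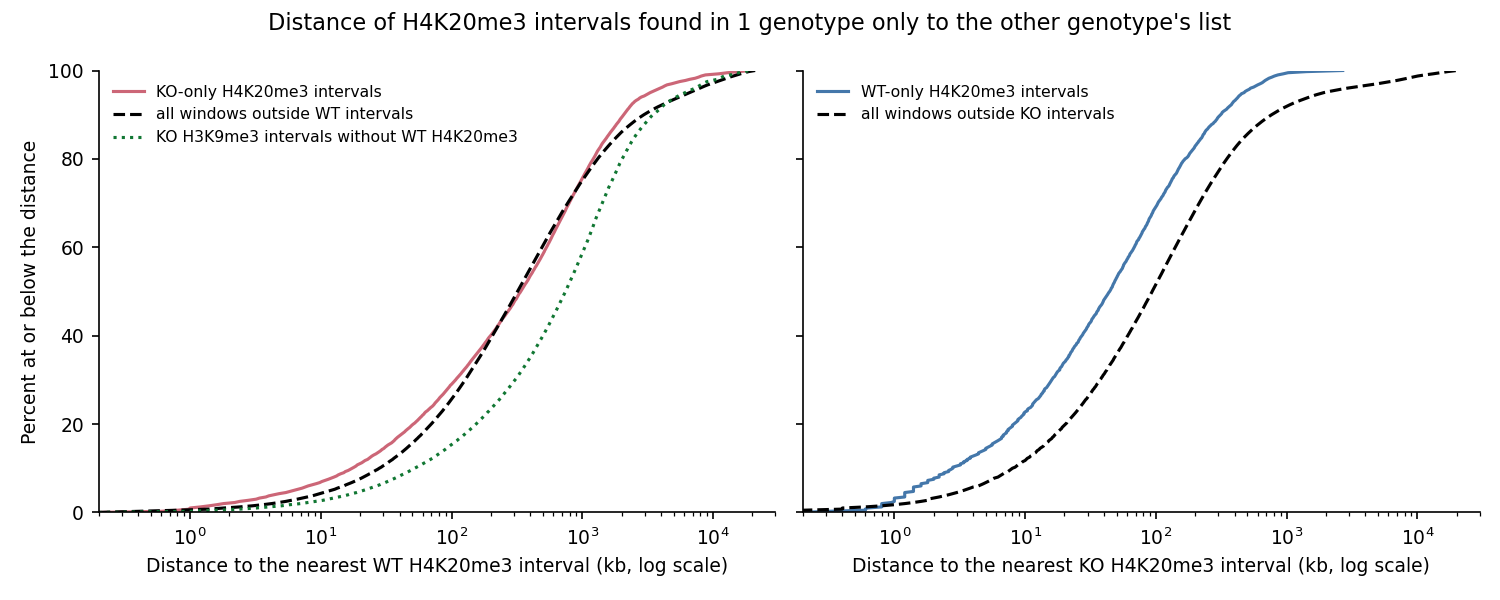
Cumulative percent of intervals by their distance to the nearest H4K20me3 interval of the other genotype (kb, log scale), for KO-only intervals to WT (left) and WT-only intervals to KO (right), with all 200-bp windows as dashed lines and, on the left, KO H3K9me3 intervals without WT H4K20me3 as a dotted line. The KO-only curve runs close to that of the windows, with medians of 338 and 319 kb, and the WT-only curve lies to the left of its windows, with medians of 44.3 and 93.6 kb.

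Some of the most distant intervals were on chromosome X, where the WT list held few. The 5 KO-only intervals of at least 5 kb farthest from WT were all there, between 125685001 and 134572400, at 14.7 to 18.8 Mb. The farthest, of 7.2 kb from 129090401 to 129097600, lay largely over H3K4me3, which covered 5.8 kb of it in WT. The next, from 127549601 to 127554600, lay wholly on KO H3K9me3 and on none in WT. Another, from 125685001 to 125690200, lay on H3K9me3 in both genotypes. The others, from 134556401 to 134561400 and from 134566401 to 134572400, had no H3K9me3, and the first of them held 2.8 kb of WT H3K4me3.

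What the KO-only intervals lay on changed with distance. Within 10 kb of WT, WT H3K9me3 covered 55.7% of their length and KO H3K9me3 51.7%. Beyond 1 Mb these were 51.3% and 80.8%. The far intervals thus lay on H3K9me3 of the KO list more than on that of the WT list. The H3K9me3 lists themselves differed in distance. Of the H3K9me3 intervals without WT H4K20me3, 41.3% of the KO list and 23.1% of the WT list lay beyond 1 Mb. The part of this in the contrast was not tested. The higher share on KO H3K9me3 far from WT was also seen within classes of width. For intervals from 2 to 5 kb the share on KO H3K9me3 was 46.2% within 10 kb and 82.5% beyond 1 Mb, and from 10 to 20 kb it was 57.7% and 79.5%. The other lists went the other way. WT MINA covered 16.5% of the length within 10 kb and 2.50% beyond 1 Mb, H3K36me3 6.32% and 1.01%, and H3K4me3 12.1% and 4.74%. Over the whole span WT MINA covered 3.94%, H3K36me3 10.8% and H3K4me3 3.98%. H3K9me3 covered 8.40% of it in WT and 10.1% in KO. The WT-only intervals lay on WT H3K9me3 for 41.3% of their length and on KO H3K9me3 for 15.04%.

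The last comparison concerned clustering. A run was defined as 3 or more intervals of a list with gaps of at most 20 kb. WT had 610 runs with 34.1% of its intervals, and KO had 1822 runs with 47.1% of its intervals. Of the KO-only intervals taken alone 42.8% lay in runs, and of the WT-only ones 15.6%. The long runs differed most. In WT 29 runs of over 10 intervals held 5.47% of the list, and in KO 188 such runs held 19.6%. No WT-only run reached that size. The longest run had 43 intervals in WT and 192 in KO.

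The order of the lists depended on how their density was treated. A list with more intervals has smaller gaps, and the mean spacing was 355 kb in WT and 120 kb in KO. The median gap was 52.2 kb in WT and 22.6 kb in KO, which is 0.147 and 0.189 of the mean spacing. With a limit on gaps scaled to the mean spacing of each list, 34.1% of the WT intervals and 27.1% of the KO intervals lay in runs, so that KO was the lower. The scaled shares were 26.2% for KO-only and 26.0% for WT-only intervals. The tenth of the 1-Mb bins that held most H4K20me3 held 57.7% of the WT length and 58.4% of the KO length.

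Most of the KO runs had no interval that overlapped a WT one. As 80.4% of all KO intervals were KO-only and the median run had 4 intervals, such runs would be frequent from that share alone. Of the 1822 runs 1090 contained no shared interval, with 5966 KO-only intervals and 36.8 Mb, and their median distance to WT was 598 kb. The other 732 held at least 1 shared interval. They comprised 2407 shared and 3557 KO-only intervals and 54.5 Mb. Thus 29.3% of all KO-only intervals lay in runs without a shared interval and 17.5% in runs around a shared interval. Together this was 46.8% of the KO-only intervals, close to the 47.1% of all KO intervals that lay in runs.

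Much of the KO length stood in 1-Mb bins with little or no H4K20me3 in WT. Of 3047 bins 1864 held H4K20me3 in WT and 2641 in KO. The 1183 bins with none in WT took 39.0 Mb in KO, and 853 of them held at least 1 KO interval. The 638 bins with up to 10 kb in WT held 3.25 Mb there and 24.6 Mb in KO. The 396 bins with over 50 kb in WT had 43.9 Mb there and 50.9 Mb in KO, or 1.16 times as much, and 257 of them had less in KO than in WT. In the 830 bins with 10 to 50 kb KO covered 1.76 times as much as WT in all, with more in 380 of them and less in 445. Bins sorted by their own WT content are not independent of the ratio, since an empty bin can only be equal or higher in KO, so these values are a description. Over all bins KO covered more than WT in 1809 and less in 895.

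**Figure D4:**
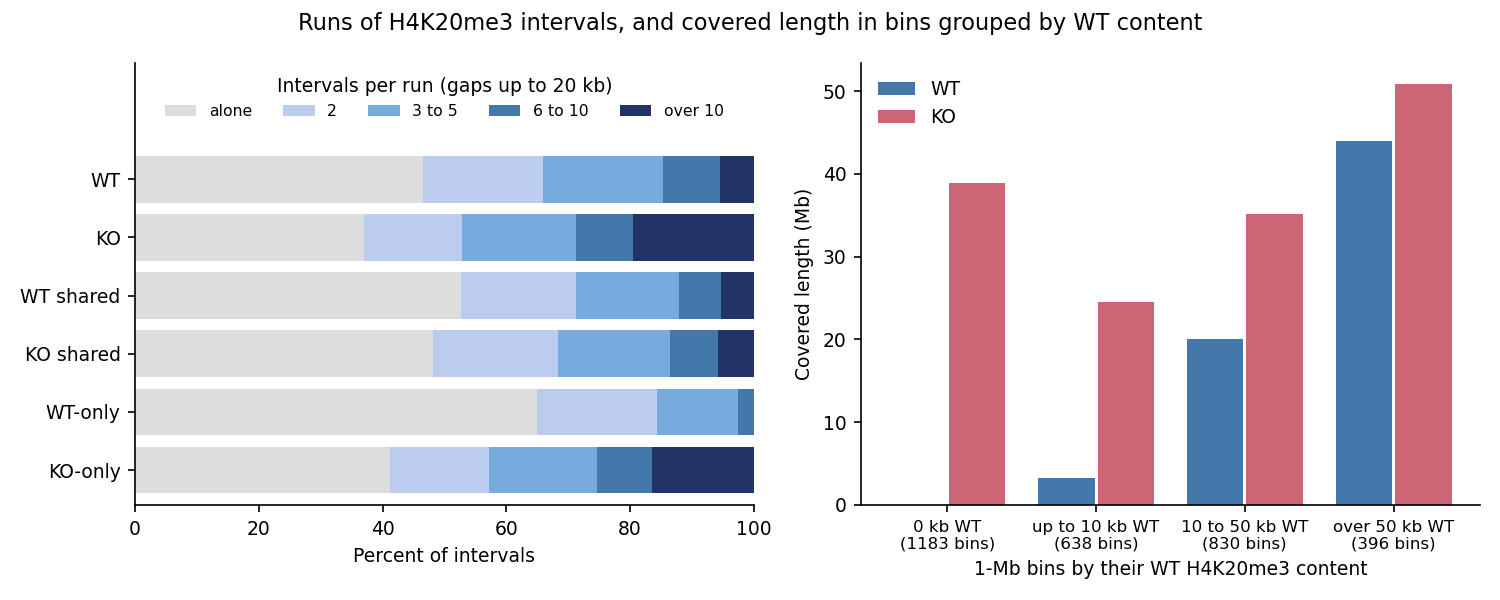
Left, percent of H4K20me3 intervals by the number of intervals in their run (gaps of at most 20 kb) for the whole lists and their shared and genotype-only parts; right, covered length in Mb in 1-Mb bins grouped by their WT content, with WT in blue and KO in red. Runs of over 10 intervals hold 19.6% of the KO list and 5.47% of the WT list, and bins without WT H4K20me3 hold 39.0 Mb in KO.

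The runs of KO-only intervals with most covered length were densely filled, which choosing them by that length favours. The largest, on chromosome 7 from 66816801 to 69355800, had 189 KO-only intervals that covered 2045 of its 2539 kb. H3K9me3 covered 1316 kb of it in WT and 2220 kb in KO, and H3K4me3 and MINA covered none in WT. A second run on chromosome 7, from 70162201 to 71803400, had 124 intervals over 1314 kb, with 978 kb of H3K9me3 in WT and 1593 kb in KO. Between 68000001 and 72000000 the 2 bins of 2 Mb held 2.4 and 5.0 kb of H4K20me3 in WT and 1372 and 1536 kb in KO, the largest KO minus WT differences of any bin. Both runs lay within the stretches of high H3K4me3 ratio that are described at the end, and the next 3 lay outside them.

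The next 3 runs lay elsewhere. On chromosome 6 from 39730601 to 40550800, 21 intervals covered 698.8 of 820.2 kb, so that its intervals were the widest of the 5 runs. H3K9me3 covered only 48.2 kb of it in WT but 613 kb in KO. On chromosome 12 from 128418601 to 129254600, 69 intervals covered 634.8 kb, where H3K9me3 covered 741.8 kb in WT and 820.2 kb in KO. On chromosome 20 from 41155401 to 41830400, 43 intervals covered 557.2 kb, with 532.4 and 648.4 kb of H3K9me3. In 4 of these 5 runs H3K9me3 was thus already widespread in WT, and in all 5 it covered more in KO.

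The other 3 bins of the 5 with the largest KO excess lay near chromosome ends and outside those stretches. On chromosome 1 from 4000001 to 6000000 H4K20me3 covered 83.0 kb in WT and 1402 kb in KO. On chromosome 5 from 2000001 to 4000000 it was 122.2 kb in WT and 1381 kb in KO, and on chromosome 22 from 48000001 to 50000000 352.6 and 1511 kb. WT H3K9me3 already covered 1501 kb, 1656 kb and 1735 kb of these bins. Within 5 Mb of either end of a chromosome, which is 7.58% of the span, lay 19.4% of the WT length, 23.6% of the KO length and 20.7% of the KO-only length. The WT-only length there was 8.40%, close to the share of the span. Shared KO intervals had 31.2% of their length there, and H3K9me3 had 18.7% in WT and 12.6% in KO. Within 2 Mb, 3.03% of the span, the WT list was instead above the KO list. There lay 10.2% of the WT length, 9.42% of the KO length and 7.02% of the KO-only length. Shared KO intervals had 15.8% there, and H3K9me3 had 7.82% in WT and 5.06% in KO. These limits were chosen after seeing the data.

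The WT-only runs with most covered length spanned less than those of KO-only intervals and were of another make-up. The largest, on chromosome 7 from 100173801 to 100398800, had 6 WT-only intervals over 184.4 kb. MINA covered 208.6 kb and H3K4me3 109.6 kb of it in WT, while H3K9me3 covered 16.2 kb in WT and none in KO. Further runs lay on chromosome 7 from 99523201 to 99615200 (87.4 kb) and on chromosome 11 from 74799801 to 74902800 (71.2 kb), from 75372601 to 75506400 (100.6 kb) and from 76851401 to 76947200 (90.4 kb). H3K9me3 covered at most 43.2 kb of any of them in WT and at most 2.2 kb in KO. The bins with the largest WT excess matched these places. On chromosome 7 from 100000001 to 102000000 H4K20me3 covered 489.0 kb in WT and 113.2 kb in KO. On chromosome 11 from 74000001 to 76000000 it covered 390.8 and 19 kb, and in the next bin 352.2 and 27.6 kb. MINA covered 895.4, 609.2 and 431.4 kb of these bins in WT. These extremes did not stand for the whole WT-only set. Over all WT-only intervals WT MINA covered 11.4% of the length and H3K4me3 8.36%, less than the 18.9% and 14.1% of the length with H4K20me3 in both genotypes. The remaining bins of the 5 lay on chromosome 8 (315.8 kb in WT and 51.8 kb in KO) and on chromosome 10 from 4000001 to 6000000 (417.0 and 172.8 kb).

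The bins were then grouped by their content of H3K9me3 in WT. The 309 bins of 1 Mb with over 200 kb of WT H3K9me3 held 15.4 Mb of H4K20me3 in WT cells and 70.2 Mb in KO, which is 4.56 times as much, and KO covered more in 290 of them. They held 46.9% of the KO length and 22.9% of the WT length. In the 925 bins with 50 to 200 kb of H3K9me3 the ratio was 1.29, and KO covered more in 493 and less in 424. In the 1553 bins with less, but some, it was 2.03. The 260 bins with none had the highest ratio, 17.99, on 0.0588 Mb in WT and 1.06 Mb in KO, so that the ratio did not follow H3K9me3 content in 1 direction. By WT MINA the ratio ran from 8.74 in the 960 bins with none to 1.46 in the 183 bins with over 200 kb, where 132 bins still had more in KO. These groupings were chosen after the regions named above had been seen.

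The chromosomes differed in all of these measures. The number of intervals was higher in KO on all 23 chromosomes, from 1.43 times on chromosome 3 to 15.6 times on chromosome 15. The share of KO-only intervals ran from 56.3% on chromosome 19, rich in genes for KRAB zinc finger proteins that carry H3K9me3, to 95.03% on chromosome 15 and 96.7% on chromosome X. Chromosome 19 had 27.2 KO intervals per Mb, the highest density, and its 905 KO-only intervals lay at a median of 29.8 kb from WT, where the windows lay at 51.6 kb. On chromosome X the medians were 5605 kb and 4214 kb, on 70 WT intervals. On 11 of the 23 chromosomes KO-only intervals were closer to WT than the windows were. The ratio of the 2 medians was lowest on chromosomes 22 (0.324), 21 (0.431) and 9 (0.540) and highest on chromosomes 2 (1.69), 16 (1.47) and 5 (1.42). Windows in unmappable sequence were not left out and can lower this ratio where a chromosome holds much of it. The order of the chromosomes therefore does not describe the KO-only intervals alone.

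The widths of pairs also differed between chromosomes. The median KO over WT ratio was below 1 on 18 chromosomes, lowest on chromosomes 3 (0.695), 1 (0.736) and 11 (0.7503). It was above 1 on chromosomes 15 (1.30, on 51 pairs), 22 (1.16), 9 (1.15), 19 (1.03) and 20 (1.02). Chromosome 3 was the one on which KO covered less than WT, with 3.93 Mb in 990 intervals against 4.47 Mb in 694. Its share of WT intervals with a KO overlap, 37.3%, was the lowest, and the highest were 84.2% of the 76 on chromosome 15 and 83.3% of the 778 on chromosome 19.

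**Figure D5:**
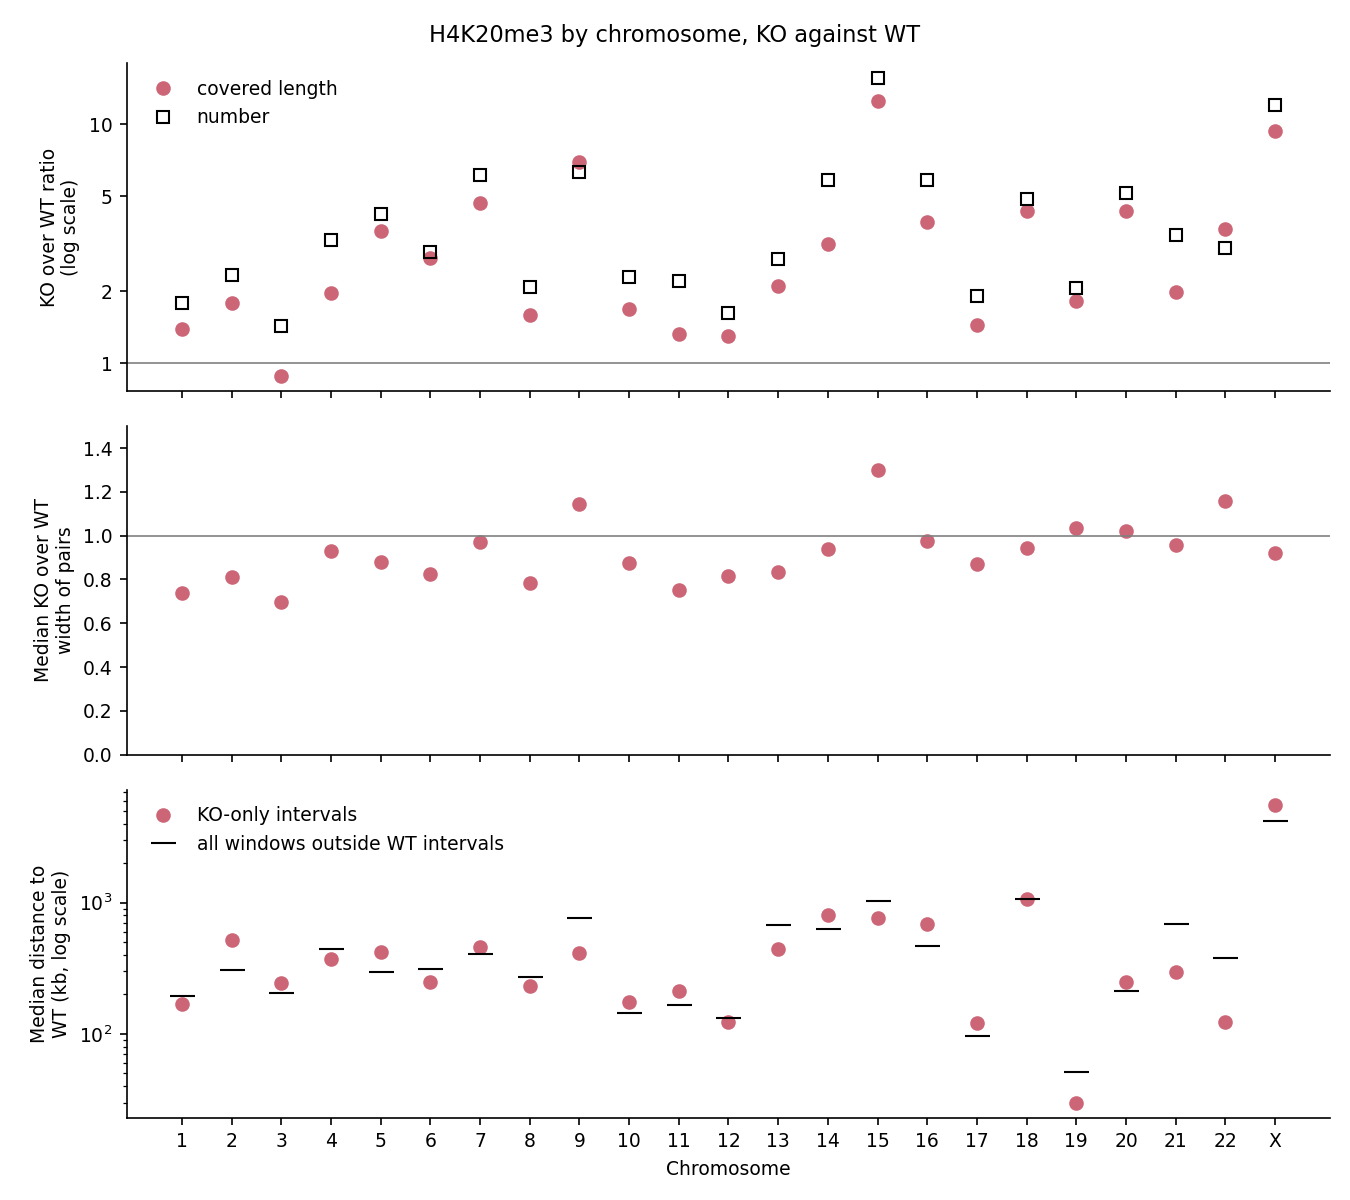
H4K20me3 by chromosome: KO over WT ratio of covered length and of number (top, log scale), median KO over WT width of one-to-one pairs (middle), and median distance in kb from KO-only intervals to WT beside that of all windows (bottom, log scale). The number ratio is above 1 on every chromosome, the width ratio is below 1 on 18 of 23, and the distances of KO-only intervals and windows move together from 29.8 kb on chromosome 19 to 5605 kb on chromosome X.

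Part of this pattern went with 8 long stretches of chromosomes in which the H3K4me3 lists gave a higher KO over WT ratio. They were cut from H3K4me3 alone and ran over 690 Mb of chromosomes 4, 5, 7, 9, 14, 15 and X. The widened pairs named on chromosomes 5, 7 and 9, the join on chromosome 14 and the 5 distant intervals on X lay inside them. All the named pairs that narrowed and all the named WT-only runs lay outside. So did most of the lists they were drawn from, 3118 of the 3582 pairs and 7749 of the 8539 WT intervals. Inside them KO had 9.53 times as many H4K20me3 intervals as WT and outside 2.30 times. One-to-one pairs were wider in KO inside (median ratio 1.09, 464 pairs) and narrower outside (0.857, 3118 pairs). Single chromosomes did not all follow this: chromosome 14, which lay wholly inside, had a ratio of 0.941 on 113 pairs, and chromosomes 19, 20 and 22, wholly outside, had ratios above 1. Of all KO-only intervals 34.0% were inside, and of all 25318 KO intervals 7528. The stretches took up 690 Mb of bins and the rest 2368 Mb. Inside the stretches 92.0% of the KO intervals were KO-only, and outside 75.5% still were. The part of these stretches in the H4K20me3 difference was not tested beyond these values.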

How the data were processed

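ChIP-seq libraries of H4K20me3 in WT and KO cells were compared from the deposited interval lists. Per the submitters' processing notes the authors used BWA, SICER version 1.1 and the genome build hg19. The only deposited values are start and end coordinates in bp, on a 200-bp grid, with neighbours at least 0.8 kb apart. Read depth is unknown, and for the caller's gap, false discovery and input settings the sources used here give nothing. The merged list and the input library were not used.

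Comparisons on these windows used numpy 2.4.6 and scipy 1.17.1 in Python 3.11.15, and plots matplotlib 3.10.9. Distances run from edge to edge. The span of a chromosome runs from its first base to its last interval in any list, with unmappable sequence kept. Overlap counts from bedtools 2.31.1 equalled those made here, 4727 WT intervals found in KO and 4961 KO intervals found in WT. Counting was tested on simulated lists. Shares have Wilson intervals that cover counting error only. Regions named were the 5 most extreme of each kind (pairs by width difference, joins, splits, runs, distances from 5 kb width, 2-Mb bins) and the 3 highest and lowest chromosomes. Stretches were cut by a 2-state model of the log2 KO over WT H3K4me3 length in 2-Mb bins (1 kb added, chance of a switch 0.001, bins under 20 kb without weight). Members, lists and measures were chosen with earlier results of these data known. No gene or sequence is named for an interval, as hg19 annotation was not used here.

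Alternatives were merging within 5 kb, minimum widths of 2 and 10 kb, autosomes only, chromosome Y added, the stretches left out, overlaps of 50%, and other limits on distance, gap and bin size. The minimum of 10 kb, the scaled gap, the bins sorted by other marks and the distances from chromosome ends were chosen after seeing the data.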

Additional observations from a re-analysis of the deposited data

Results flagged for a closer look

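Chromosome Y was outside the comparisons. The H4K20me3 KO list held 18 intervals over 68.8 kb there and the WT list 2 intervals over 15.6 kb, which drew attention as unused data. H3K9me3 had 26 intervals on Y in KO and 20 in WT. H3K4me3 had 1 of 0.8 kb in each genotype, and H3K36me3 had 0. Whether these cells carry a Y chromosome was not checked. The intervals are therefore not read as chromatin of chromosome Y or as a repeat of the KO excess. With Y added, the results that were recomputed stayed within their counting error or within 1.5 times.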

How the results depend on the processing

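The KO over WT ratios of number and length stayed above 1 and the width ratio of pairs below 1 under every alternative run, the latter nearest to 1 (0.987) with a minimum of 10 kb. The number ratio was 1.73 with a minimum of 10 kb. The share of KO intervals found in WT, 19.6%, was 20.2% on autosomes, 21.1% and 22.9% with minimum widths of 2 and 10 kb, 18.7% and 10.97% with an overlap of 50% of the shorter or of both intervals, and 24.5% without the stretches. The share of WT intervals found in KO, 55.4%, was in the same order of settings 53.1%, 41.2%, 53.3%, 32.5% and 53.5% (autosomes kept it). Pairs wider in KO were 41.0% with merging within 5 kb, 46.2% with a minimum of 10 kb and 35.8% without the stretches. The median distance of KO-only intervals was 221.3 kb without the stretches, where that of the windows was 248.6 kb. The KO intervals in runs were 47.96% on autosomes, 24.9% after merging, 37.2% at 10 kb, 45.0% without the stretches, 33.8% and 65.7% with gaps of 10 and 50 kb, and 27.1% with the scaled gap. The WT intervals in runs were 13.6% after merging, 23.97% at 10 kb, and 23.7% and 49.9% with gaps of 10 and 50 kb. On chromosome 11 the length ratio turned to 0.912 with a minimum of 10 kb. The cause of these shifts was not tested, other than that stricter overlaps and widths count fewer intervals. No paired analysis was possible because each group has 1 library. Unknown depth limits every comparison of list size.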
